A study of Mus musculus and Homo sapiens with 34 samples.

Results

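The 46 genes described here are interferon-stimulated genes, chosen by symbol from a list and matched in the human tables by the upper-case symbol. They were 46 of the 48431 Ensembl genes listed in any of the 7 count tables of the study. The 6 Ifit genes (Ifit1, Ifit2, Ifit3, Ifit3b, Ifit1bl1 and Ifit1bl2) were set beside the 40 other members throughout. The study asked how opposing regulators of lung and gut-like identity act in lung adenocarcinoma cells, and its RNA sequencing comprised 34 libraries in 17 groups of 2, 22 from mouse and 12 from human cultures.

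The mouse cultures were lung tumour cultures, each of them 1 line. The 3154 organoids carried p53frt, Rosa-FSF-CreERT2 and Hnf4aflox in every library, ethanol controls included. They were given 4-hydroxytamoxifen (4OHT, 2 mM per the labels), which activates the CreERT2 recombinase and deletes Hnf4a, or ethanol, and were sampled after 2 weeks. In a second experiment 3154 groups were labelled ethanol or 4OHT, each with or without MRTX1133 at 3 nM, with a time of 48 h. The time since 4OHT is not given there, so 48 h in 3154 names the experiment and not the age of the deletion. No group received 4OHT without Hnf4aflox. Loss of Hnf4a therefore cannot be told apart from 4OHT or CreERT2 activity, and deletion below names the comparison of 4OHT with ethanol. MRTX1133 is a small-molecule inhibitor. The 1027B organoids and the 3311 cell line carried Foxa1flox and Foxa2flox beside p53frt and Rosa-FSF-CreERT2, and the labels name no recombination step for them. The 1027B organoids were left as controls or given trametinib, an inhibitor of the MEK kinases, at 10 nM, or MRTX1133 at 20 nM, for 48 h. The 3311 cells were controls or received trametinib at 50 nM for 48 h. The human lung adenocarcinoma cell lines H358 and H1651 were controls or received trametinib at 20 nM for 48 h. H1651 with a lentiviral HNF4α construct was also grown for 7 days with doxycycline at 1 µg/mL and was compared with H1651 grown without it.

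Interferons act through receptors whose kinases phosphorylate transcription factors, STAT2 among them. A complex that holds STAT2 and IRF9 binds a sequence called the interferon-stimulated response element, and interferon gamma acts through another sequence, the gamma-activated site. The target genes include sensors of foreign RNA, factors that block viral growth and the regulators of the pathway itself. Ifit proteins bind foreign RNA and hold back its translation.

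The 6 mouse Ifit genes lie together on chromosome 19, from 34550694 to 34650009 in GRCm38, a stretch of 99.3 kb. The 250 bases before the annotated start of 4 of them, of Isg15 and of Irf1 follow, to show the motif in the Ifit cluster and in Isg15, the window of Ifit2 without it and the other site in Irf1. They come from RefSeq, GRCm38.p6, and are written 5′ to 3′ on the strand of the gene. Capitals mark the core of the interferon-stimulated response element, searched as GAAA, any 2 bases and GAAA again, on either strand. In Irf1 they mark TTCNNNGAA, the gamma-activated site, which reads alike on both strands. The windows are chr19:34640639-34640888 on the plus strand for Ifit1, chr19:34583279-34583528 plus for Ifit3, chr19:34607707-34607956 plus for Ifit3b and chr19:34550444-34550693 plus for Ifit2. For Isg15 the window is chr4:156200819-156201068 on the minus strand, and for Irf1 it is chr11:53769764-53770013 on the plus strand.
Ifit1: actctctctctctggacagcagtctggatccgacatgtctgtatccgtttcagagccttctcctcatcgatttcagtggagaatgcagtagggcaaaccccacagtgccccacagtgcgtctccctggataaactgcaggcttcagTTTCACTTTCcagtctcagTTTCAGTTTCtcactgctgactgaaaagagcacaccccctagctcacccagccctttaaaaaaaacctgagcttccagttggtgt
Ifit3: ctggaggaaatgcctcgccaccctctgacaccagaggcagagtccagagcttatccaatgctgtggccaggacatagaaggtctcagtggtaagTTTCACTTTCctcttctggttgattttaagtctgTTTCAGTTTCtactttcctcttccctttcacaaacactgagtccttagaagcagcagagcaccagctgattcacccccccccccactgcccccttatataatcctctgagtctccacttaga
Ifit3b: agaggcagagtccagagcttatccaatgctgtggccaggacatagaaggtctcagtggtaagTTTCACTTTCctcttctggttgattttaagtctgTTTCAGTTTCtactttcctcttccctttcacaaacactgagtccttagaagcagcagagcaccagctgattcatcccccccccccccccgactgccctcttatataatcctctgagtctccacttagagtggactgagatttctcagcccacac
Ifit2: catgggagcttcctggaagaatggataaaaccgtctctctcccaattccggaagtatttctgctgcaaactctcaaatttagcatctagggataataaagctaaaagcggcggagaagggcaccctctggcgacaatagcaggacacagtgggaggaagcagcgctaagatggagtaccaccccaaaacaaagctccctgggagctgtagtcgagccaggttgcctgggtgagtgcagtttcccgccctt
Isg15: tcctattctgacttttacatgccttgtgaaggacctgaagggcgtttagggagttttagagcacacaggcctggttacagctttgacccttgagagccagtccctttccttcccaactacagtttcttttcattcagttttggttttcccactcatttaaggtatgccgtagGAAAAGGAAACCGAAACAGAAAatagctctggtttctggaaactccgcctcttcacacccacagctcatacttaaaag
Irf1: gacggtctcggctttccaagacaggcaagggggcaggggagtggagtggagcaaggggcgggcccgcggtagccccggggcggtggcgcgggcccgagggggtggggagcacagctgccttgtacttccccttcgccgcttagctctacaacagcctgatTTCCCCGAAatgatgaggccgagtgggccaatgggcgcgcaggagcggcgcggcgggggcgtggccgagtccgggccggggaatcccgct

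Ifit1 held 2 matches, starting 104 and 85 bases before the annotated start, and Ifit3 held 2, at 156 and 122 bases. Isg15, which encodes a ubiquitin-like protein, held 3 overlapping matches at 78, 72 and 66 bases. The Ifit2 window held no match. RefSeq windows from 250 bases before to 50 after the start were found for 36 of the 46 members, and 18 of the 36 (50.0%) held the response element core, against 3.99% of the 27025 genes with such windows. By role, the motif was in 5 of 6 Ifit genes, 3 of 3 sensors, 3 of 5 OAS family genes and PKR, 4 of 9 antiviral effectors, 1 of 5 genes of the ISG15 group, 1 of 4 transcription factors and 1 of 4 others. TTCNNNGAA was in 7 of 36 members (19.4%), Irf1 and Ifit2 among them, and in 9.55% of those genes. A match describes letters and shows no binding. The windows of Ifit1 and Ifit1bl2 share 245 bases, so their matches are not separate. Aligned end to end, the Ifit3 and Ifit3b windows matched in 259 of 340 columns (76.2%), with gaps counted as columns. The 2 motif matches start at 156 and 122 bases in Ifit3 and at 188 and 154 bases in Ifit3b. The windows are thus offset, and the share does not measure how alike the aligned bases are. Ifit3 also shared 51.2% of its 50-base stretches with Ifit3b, so the split of reads between these 2 genes is uncertain. Of the stretches of Oas1a, 57.6% were found in Oas1g.

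Libraries held from 19692517 to 45284286 counts, and 3 counts corresponded to between 0.0662 and 0.152 CPM, the count scaled to library size. Levels below are CPM scaled by TMM within each table, and a level may be compared between libraries of 1 table, not between genes or tables. Changes are log2 differences of fitted group means ± SE, with 2 libraries a group, and adjusted p values are those of edgeR's quasi-likelihood test with Benjamini-Hochberg adjustment over all genes tested in a table. A gene was called when this was under 0.05. In fits without 1 library, given below for members, the number called over all genes moved too in most comparisons. Member counts from those fits therefore do not describe the members alone. Because the labels do not say that replicates were separate cultures, p values measure the spread between these libraries only, and no exact permutation test with 2 libraries against 2 could reach 0.05. Where groups are said to be apart or not to overlap, this describes the levels and is no support beyond the call. The share of all genes whose groups stood apart was not computed. The targeted Hnf4a measured 315 to 427 CPM in ethanol and 53.5 to 68.0 CPM in 4OHT at 2 weeks, and the counts do not separate deleted from kept exons. At 48 h it measured 221 to 230 CPM in the ethanol controls and 49.4 to 50.4 CPM in the 4OHT controls. Doxycycline took HNF4A from between 35.9 and 47.1 to between 94.4 and 96.8 CPM in H1651. Dusp6 (DUSP6 in human), a target of MEK and ERK signalling, fell with trametinib in 1027B, 3311 and H358 (log2 -2.80, -1.87 and -7.59), and was not called in H1651 (log2 -3.00, adjusted p 0.15). With MRTX1133 Dusp6 fell in 1027B (log2 -1.20), and in 3154 its log2 differences were -0.09 with Hnf4a intact and -0.60 after deletion, neither called. Keratins marked the cultures as epithelial, but H1651 had little KRT19 (6.41 to 8.70 CPM) and EPCAM (0.993 to 3.81 CPM). Fibroblast markers summed to at most 1.69 CPM in every 3154 and 1027B library, and endothelial markers to at most 0.804 CPM in those of the 48 h experiments.

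Between 30 and 39 of the 46 members had enough counts to be tested in a table. In the mouse tables from 30 to 35 were tested, and in the human tables from 37 to 39, where Ifit3b, Ifit1bl1, Ifit1bl2, Oas1a, Oasl1 and Oasl2 had no row of that symbol. Zbp1, a sensor, was tested in none. Rsad2, an antiviral enzyme, had at most 6 counts in any mouse library and from 19 to 409 in the human ones. Some members passed the filter only through the group where they were high, so the counts and medians below describe the tested members and not all 46. In bulk RNA, fewer cells of a type and less RNA per cell cannot be told apart. Of 8 interferon genes on a list written for the upstream pathway, IFNE and IFNL1 had rows, in the human trametinib tables, with means of at most 0.230 CPM.

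**Figure D1:**
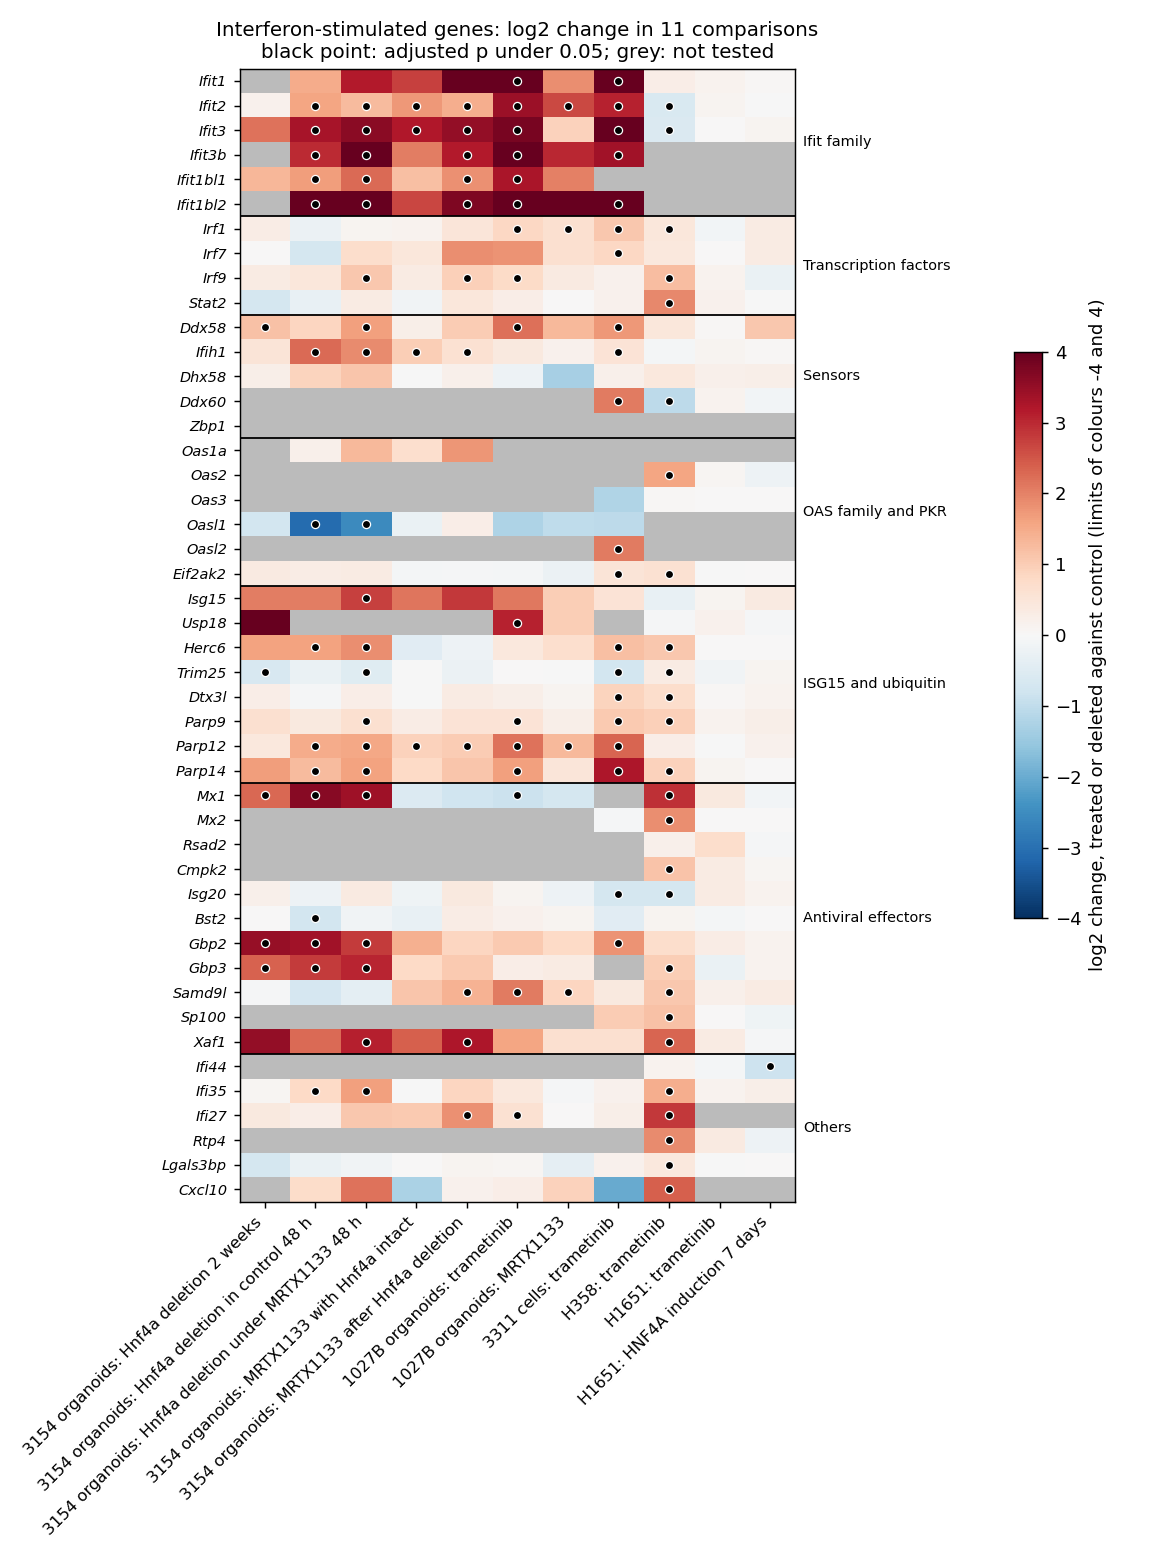
Log2 change of each of the 46 members (rows, grouped by role) in 11 comparisons with the matching control (columns); a black point marks adjusted p under 0.05 and grey a member not tested. Ifit2 is called higher in all mouse columns except the 2-week deletion, and IFIT2 and IFIT3 are lower in H358.

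At 2 weeks after 4OHT, 4 of the 30 tested members were higher and 1 was lower in 3154 organoids. The higher genes were Gbp2 and Gbp3, which encode interferon-induced GTPases, Mx1, an antiviral GTPase, and Ddx58, the RNA sensor RIG-I. The lower gene was Trim25, a ubiquitin ligase that acts on RIG-I. The share called among all 14492 genes was 9.81%, with 4.03% higher and 5.78% lower. DESeq2 called 11 members, against 15.6% of all genes. With the replicate number as a block edgeR called 15, against 31.5%, and whether the numbers pair these libraries is not known. The median log2 change was 0.38 over the tested members and 0.02 over all genes.

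Gbp2 measured 0.824 and 0.539 CPM in the ethanol libraries and 6.76 and 8.92 CPM in the 4OHT libraries. This was a rise of 3.50 ± 0.36 (adjusted p 0.00974), with no overlap between the groups. Gbp3 measured 0.429 and 0.359 CPM in ethanol and 2.07 and 2.06 CPM in 4OHT, and rose by 2.37 ± 0.38 (adjusted p 0.0212). Mx1 went from 6.13 and 5.88 CPM to 21.6 and 37.1 CPM (2.29 ± 0.30, adjusted p 0.0149), and the second 4OHT library was the higher one. Ddx58 measured 4.55 and 5.88 CPM in ethanol and 10.4 and 12.9 CPM in 4OHT (1.17 ± 0.25, adjusted p 0.0443). Trim25 measured 137 and 142 CPM in ethanol and 86.6 and 93.7 CPM in 4OHT, and fell by 0.63 ± 0.12 (adjusted p 0.0322). The groups did not overlap for any of these 5 genes.

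No Ifit gene was called at 2 weeks, where 3 of the 6 were tested. Ifit2 measured 9.07 and 5.75 CPM in ethanol and 7.98 and 8.85 CPM in 4OHT (0.18 ± 0.29, adjusted p 0.71), and the groups overlapped. Ifit3 measured 0.198 and 0.314 CPM in ethanol and 0.591 and 1.72 CPM in 4OHT (2.18 ± 0.69, adjusted p 0.108). Ifit1 was under the filter, with 0.0330 and 0 CPM in ethanol, 0.0328 CPM in the first 4OHT library and 2.06 CPM in the second. In Ifit1, Ifit3, Isg15 (0.525 and 1.20 CPM in 4OHT) and Usp18 (0.427 and 1.76 CPM in 4OHT), the second 4OHT library was the higher of the pair. Usp18 removes ISG15 from proteins.

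Among the transcription factors, none of 4 was called. Stat2 measured 21.3 and 25.2 CPM in ethanol and 14.4 and 14.1 CPM in 4OHT (-0.71 ± 0.18, adjusted p 0.0634). The log2 differences of Irf1, Irf7 and Irf9 were 0.29, 0.01 and 0.33, none called. Of 26 tested genes of an upstream list of receptors, kinases and factors, 1 was higher (Irf5, 2.77) and 2 lower, among them Irf8 (-1.88). Of 18 tested genes of a list of further interferon-stimulated genes, 2 were higher and 3 lower, with Ifitm2 at 3.61 and Ifi27l2a at -5.82. Beside this, the summed level of leukocyte markers, of which 5 of 10 had rows, was 18.6 to 44.8 CPM in ethanol and 10.3 to 13.8 CPM in 4OHT. Csf1r led it in ethanol, and Ptprc reached at most 0.375 CPM. Endothelial markers, 3 of 4 with rows, summed to 5.08 to 5.93 CPM in ethanol and to 2.17 to 2.55 CPM in 4OHT, with Pecam1 lower (-1.37, adjusted p 0.0394). Col1a1, the 1 fibroblast marker of 5 with a row, measured 0.0898 to 0.264 CPM in ethanol and 0.412 to 0.853 CPM in 4OHT. Whether these lists had a part in the result was not tested. Without the second 4OHT library 2 members were called, and without the first ethanol library 11 were; Mx1 and Gbp2 were called in every fit without 1 library.

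At 48 h, deletion in the control medium came with 13 higher and 2 lower members among 34 tested. Among the Ifit genes 5 of 6 rose, by a median over the 6 of 2.32, whereas 8 of the 28 other members rose, 2 fell and their median was 0.42. The background was 31% of 15458 genes called, 15.3% higher and 15.7% lower. Mx1, Gbp2, Gbp3, Ifih1 (the RNA sensor MDA5) and Parp12, an ADP-ribosyltransferase, were among those that rose, and Oasl1, an OAS-like protein, fell the most.

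Ifit3 measured 0.379 and 0.336 CPM in the ethanol controls and 3.07 and 4.06 CPM in the 4OHT controls, a rise of 3.30 ± 0.38 (adjusted p 0.00097). Ifit2 measured 7.32 and 6.88 CPM in ethanol and 20.9 and 21.3 CPM in 4OHT (1.57 ± 0.17, adjusted p 0.000719). Ifit1bl2 went from 0.0841 and 0.168 CPM to 1.86 and 3.48 CPM (4.34 ± 0.52, adjusted p 0.00113). In each of these 3 genes both 4OHT libraries lay above both ethanol libraries. Ifit3b rose by 2.99 ± 0.45 and Ifit1bl1 by 1.66 ± 0.28. Ifit1 remained near the limit of detection, with 0 and 0.126 CPM in ethanol and 0.265 and 0.0893 CPM in 4OHT. Its log2 difference of 1.47 ± 2.17 was not called, and the ratio of summed counts scaled by library size, 2.93, had an exact 95% interval of 0.731 to 16.8 for counting error alone.

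Mx1 measured 0.673 and 1.34 CPM in ethanol and 11.1 and 14.2 CPM in 4OHT (3.64 ± 0.34, adjusted p 0.000462). Gbp2 measured 0.294 and 0.629 CPM in ethanol and 4.74 and 4.91 CPM in 4OHT (3.37 ± 0.33), and Gbp3 rose by 2.80 ± 0.47. Ifih1 measured 5.30 and 5.20 CPM in ethanol and 24.0 and 26.4 CPM in 4OHT (2.26 ± 0.14, adjusted p 0.000141). Groups did not overlap in these genes. Oasl1 measured 7.32 and 12.8 CPM in ethanol and 1.02 and 1.34 CPM in 4OHT, and fell by 3.09 ± 0.34 (adjusted p 0.000758). Bst2, a membrane protein that tethers budding virus, measured 19.3 and 21.7 CPM in ethanol and 12.4 and 12.3 CPM in 4OHT (-0.73 ± 0.21, adjusted p 0.0324).

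None of the 4 transcription factors was called in this comparison. Irf1, Irf7, Irf9 and Stat2 had log2 differences of -0.25, -0.70, 0.45 and -0.30. Of 26 tested genes of the upstream list, 7 were higher and 5 lower, Irf8 (-1.94) among the latter. Of 20 tested further genes, 7 were higher, with Nmi at 2.12 and Gbp7 at 2.06, and 2 lower, with Ifi27l2b at -4.29. Col1a1, the 1 fibroblast marker of 5 with a row, measured 0.168 to 0.337 CPM in ethanol and 0.447 to 0.493 CPM in 4OHT, and its part in the result was not tested. In the fits without 1 library, 11 of the 15 members were called every time, the 5 Ifit genes included.

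Under MRTX1133, deletion came with 18 higher and 2 lower members among 34 tested, against 27.7% of all genes called. The 5 Ifit genes called were those that rose in control medium, and 13 of the 28 other members were higher and 2 lower, with medians of 3.39 and 1.10.

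Ifit1bl2 measured 0.957 and 0.683 CPM in ethanol with MRTX1133 and 40.0 and 30.5 CPM in 4OHT with MRTX1133, a rise of 5.41 ± 0.36 (adjusted p 0.000146). Ifit3 measured 3.75 and 2.85 CPM in ethanol and 49.1 and 31.6 CPM in 4OHT (3.61 ± 0.27, adjusted p 0.000222). Ifit2 measured 27.1 and 20.3 CPM in ethanol and 58.3 and 56.3 CPM in 4OHT (1.27 ± 0.16, adjusted p 0.0013). All 4OHT libraries were above all ethanol libraries in these 3 genes. Ifit3b rose by 4.11 ± 0.34, from 1.45 and 0.804 CPM to 23.6 and 15.8 CPM. Ifit1 measured 0.689 and 0.201 CPM in ethanol and 7.37 and 0.816 CPM in 4OHT (3.17 ± 1.03, adjusted p 0.054), and the first 4OHT library held most of its counts.

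Outside the Ifit genes, Irf9, a subunit of the complex that binds the response element, rose by 1.09 ± 0.17, from 22.0 and 20.0 CPM to 50.5 and 38.8 CPM. Irf1, Irf7 and Stat2 differed by 0.12, 0.72 and 0.31 and were not called. Mx1 rose by 3.40 ± 0.36, Gbp3 by 3.04, Xaf1, an interferon-induced regulator of cell death, by 3.12 ± 0.72, and Isg15 by 2.74 ± 0.86 (adjusted p 0.0475). The rise of Isg15, from 0.498 and 0.281 to 4.65 and 0.674 CPM, was not called without the first 4OHT library with MRTX1133 (0.78, adjusted p 0.461), nor was that of Xaf1 (2.03, adjusted p 0.111). Oasl1 fell by 2.54 ± 0.33 and Trim25 by 0.50 ± 0.14. Of the 20 members 15 were called in every fit without 1 library, Oasl1 among them and Trim25 not. Of the upstream list 6 genes were higher and 3 lower of 26, and of the further genes 10 were higher and 2 lower of 20, with Tap1 at 1.98 and Ifi27l2b at -4.70. Leukocyte markers, 5 of 10 with rows, summed to 3.10 to 6.43 CPM in ethanol and to 10.1 to 10.4 CPM in 4OHT, both with MRTX1133, with Lyz2 higher (2.52) and Ptprc at most 0.284 CPM. Epithelial markers, 5 of 5, summed to 7319 to 7641 CPM in the former and to 6795 to 7293 CPM in the latter. Of the fibroblast markers 1 of 5 had a row, Col1a1, at 0.115 to 0.121 and 0.426 to 0.473 CPM (1.89, called). The part of these lists in the result was not tested.

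**Figure D2:**
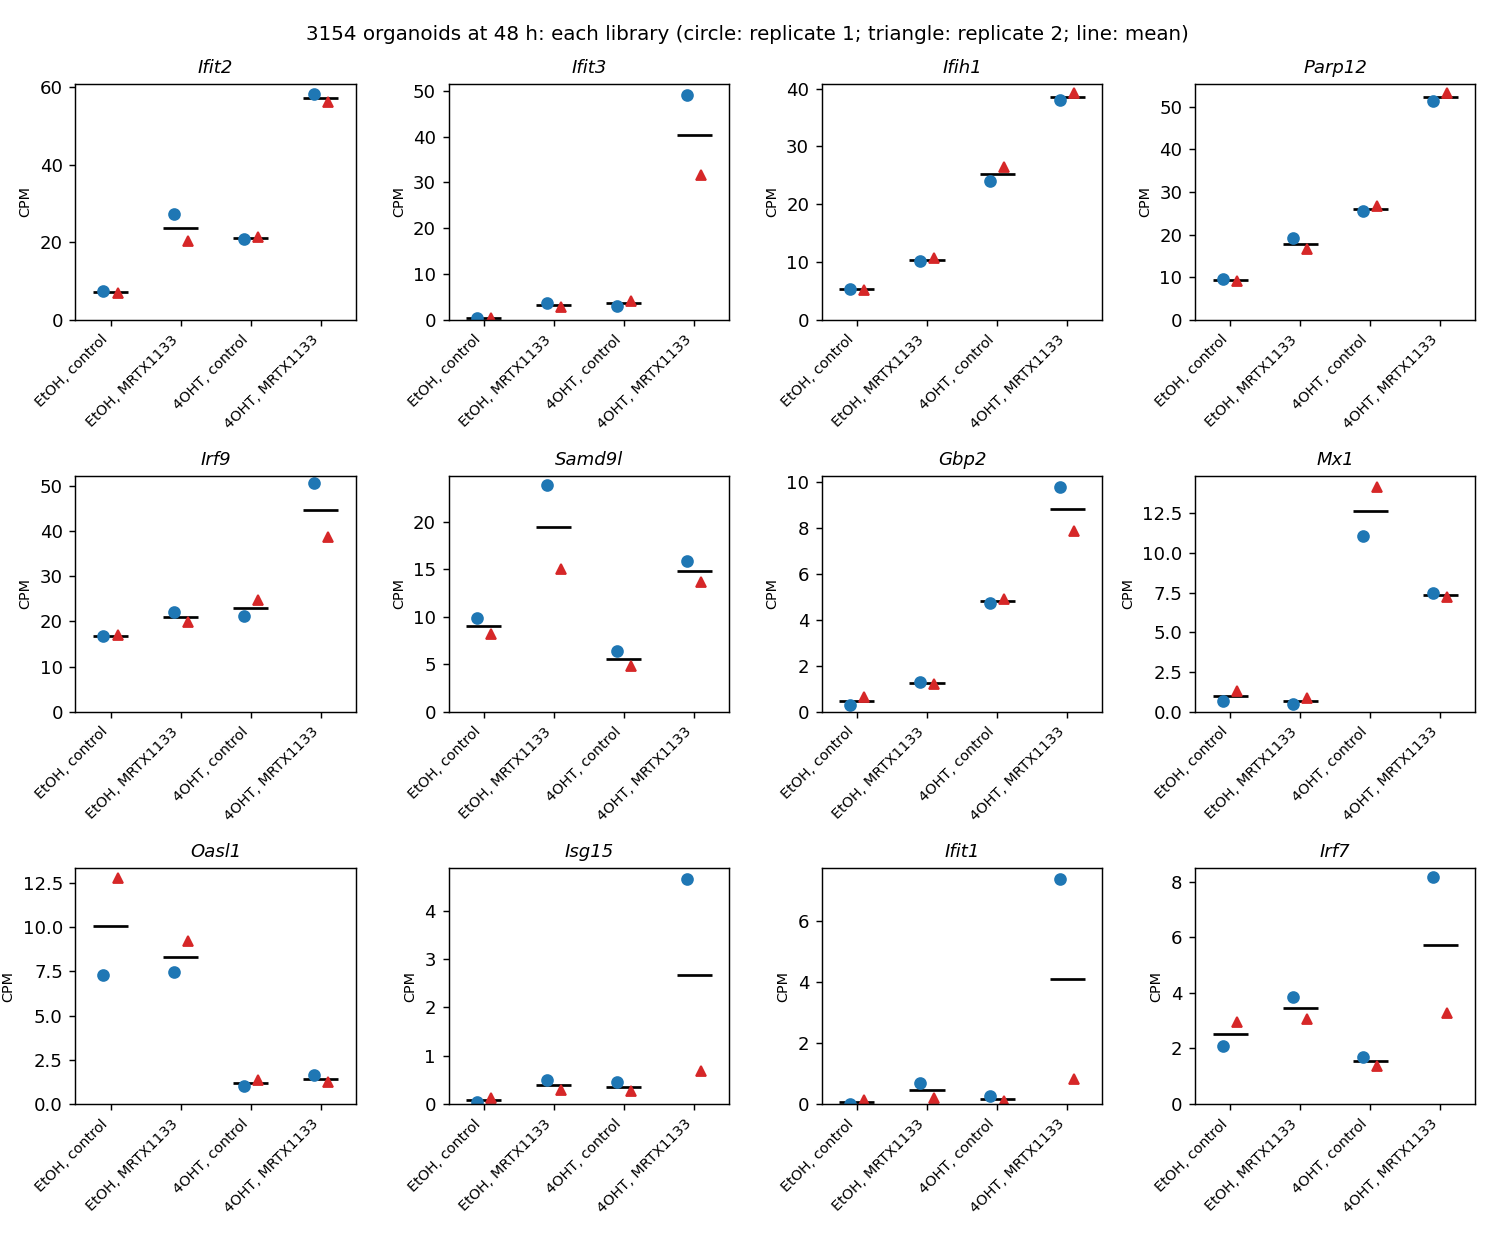
CPM (linear axis) of 12 members in the 8 libraries of 3154 at 48 h, by group; each point is 1 library and the line the group mean. Ifit2, Ifit3 and Parp12 are lowest in the ethanol controls and highest with 4OHT and MRTX1133, while Mx1 follows 4OHT and Oasl1 is lower with 4OHT.

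MRTX1133 given with Hnf4a intact raised 4 of 34 tested members and lowered none. They were Ifit2, Ifit3, Ifih1 and Parp12, at a background of 0.349% of genes called, 0.317% higher and 0.0323% lower. Ifit2 measured 7.32 and 6.88 CPM without and 27.1 and 20.3 CPM with the inhibitor, a rise of 1.74 ± 0.17 (adjusted p 0.0132). Ifit3 went from 0.379 and 0.336 to 3.75 and 2.85 CPM (3.19 ± 0.38, adjusted p 0.0245). Both inhibitor libraries stood above both controls for the 2 genes. Ifih1 measured 5.30 and 5.20 CPM without and 10.2 and 10.6 CPM with MRTX1133 (0.98 ± 0.14, adjusted p 0.0364). Parp12 measured 9.68 and 9.06 CPM without and 19.1 and 16.6 CPM with it (0.93 ± 0.14, adjusted p 0.0429). These groups did not overlap either. The median change was 2.35 over the 6 Ifit genes and 0.19 over the 28 others.

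Ifit1 had 0 and 0.126 CPM without and 0.689 and 0.201 CPM with MRTX1133 (2.74 ± 1.83, adjusted p 0.629), a ratio of 7.16 with a 95% counting interval of 2.16 to 37.2. The transcription factors differed little, with Irf1 at 0.13, Irf7 at 0.46, Irf9 at 0.32 and Stat2 at -0.15, none called. No gene of the upstream list (0 of 26) or of the further list (0 of 20) was called by edgeR, where 5 and 6 had an unadjusted p under 0.05. A fit of the 2 groups alone called 0 members and 0% of genes, and DESeq2 called 8 members and 2.26% of genes. Lung lineage markers, 4 of 4 with rows, summed to 6350 to 8624 CPM without and to 10604 to 13469 CPM with MRTX1133, and none of Sftpb, Sftpc and Nkx2-1 was called. Col1a1 measured 0.168 to 0.337 CPM without and 0.115 to 0.121 CPM with the inhibitor, and Pecam1, the 1 endothelial marker of 4 with a row, 0.168 to 0.547 and 0.603 to 0.727 CPM. Whether these lists had a part in the result was not tested. Leaving out 1 library left 0 to 5 members called; without the first library with MRTX1133 it was 0, and without the second, or without the first control, it was 1.

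After deletion, MRTX1133 raised 11 of 34 members and lowered none, where 4.64% of all genes were called, 2.1% higher. The Ifit genes again led, with 5 of 6 higher and a median of 3.33, against 6 of 28 others and a median of 0.58. Ifit3 measured 3.07 and 4.06 CPM in the 4OHT controls and 49.1 and 31.6 CPM with MRTX1133 (3.50 ± 0.27, adjusted p 0.0064). Ifit1bl2 went from 1.86 and 3.48 to 40.0 and 30.5 CPM (3.73 ± 0.31, adjusted p 0.00869). Ifit2 went from 20.9 and 21.3 to 58.3 and 56.3 CPM (1.44 ± 0.16, adjusted p 0.0131). Groups were apart in all 3. Ifit3b rose by 3.16 ± 0.31 and Ifit1bl1 by 1.83. Ifit1, at 0.265 and 0.0893 CPM without and 7.37 and 0.816 CPM with MRTX1133, was not called (4.44 ± 1.19, adjusted p 0.0798).

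Irf9 rose from 21.3 and 24.8 to 50.5 and 38.8 CPM (0.95 ± 0.17, adjusted p 0.0263). Irf7, a factor that drives interferon genes, measured 1.71 and 1.38 CPM without and 8.16 and 3.27 CPM with the inhibitor (1.87 ± 0.44, adjusted p 0.0534). Irf1 and Stat2 differed by 0.50 and 0.46 and were not called. Xaf1 (3.24 ± 0.73), Ifi27 (1.84 ± 0.41), a mitochondrial protein, and Samd9l (1.39 ± 0.26), which restrains growth and translation, were also higher, and the first library with MRTX1133 had the most of Xaf1 (4.81 against 1.46 CPM) and of Ifi27 (23.7 against 9.30 CPM). Of the further genes 3 of 20 were higher, Igtp (1.71) and Uba7 (1.39) among them. A fit of the 2 groups alone called 25 members, against 26.5% of all genes, and DESeq2 called 19, against 9.13%. Every fit without 1 library called fewer members, from 0 without the first 4OHT control to 4 without the second library with MRTX1133, and 1 without either of the others. Leukocyte markers, 5 of 10 listed, summed to 10.1 to 10.4 CPM in the 4OHT libraries with MRTX1133 and to 5.57 to 7.01 CPM in the 4OHT controls, led by Lyz2 with the inhibitor, with Ptprc at most 0.284 CPM in the former. Lung lineage markers, 4 of 4 listed, summed to 12253 to 16544 CPM in the former and to 7569 to 8727 CPM in the latter, with Sftpc higher (1.73) and Sftpb lower (-0.76). Epithelial markers summed to 6795 to 7293 and 7854 to 8214 CPM. The part of these lists in the result was not tested.

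The difference between the effects of MRTX1133 with and without Hnf4a was tested as an interaction. edgeR called 0 of 34 members and 0% of 15458 genes, 5 members had an unadjusted p under 0.05 (1150 of all genes), and DESeq2 called 0 members and 30 genes. For Ifit3 the interaction was 0.31 ± 0.53 (adjusted p 0.964), and for Ifit2 it was -0.30 ± 0.23 (adjusted p 0.884). The estimates were positive for 29 of the 34 members, with a median of 0.46, and Irf7 (1.42 ± 0.61), Irf9 (0.63 ± 0.24) and Stat2 (0.62 ± 0.25) had adjusted p values of 0.671, 0.609 and 0.622. A larger rise after deletion was not shown for any member at these errors. The deletion and inhibitor comparisons of this experiment share libraries, so their changes are not independent of each other.

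**Figure D3:**
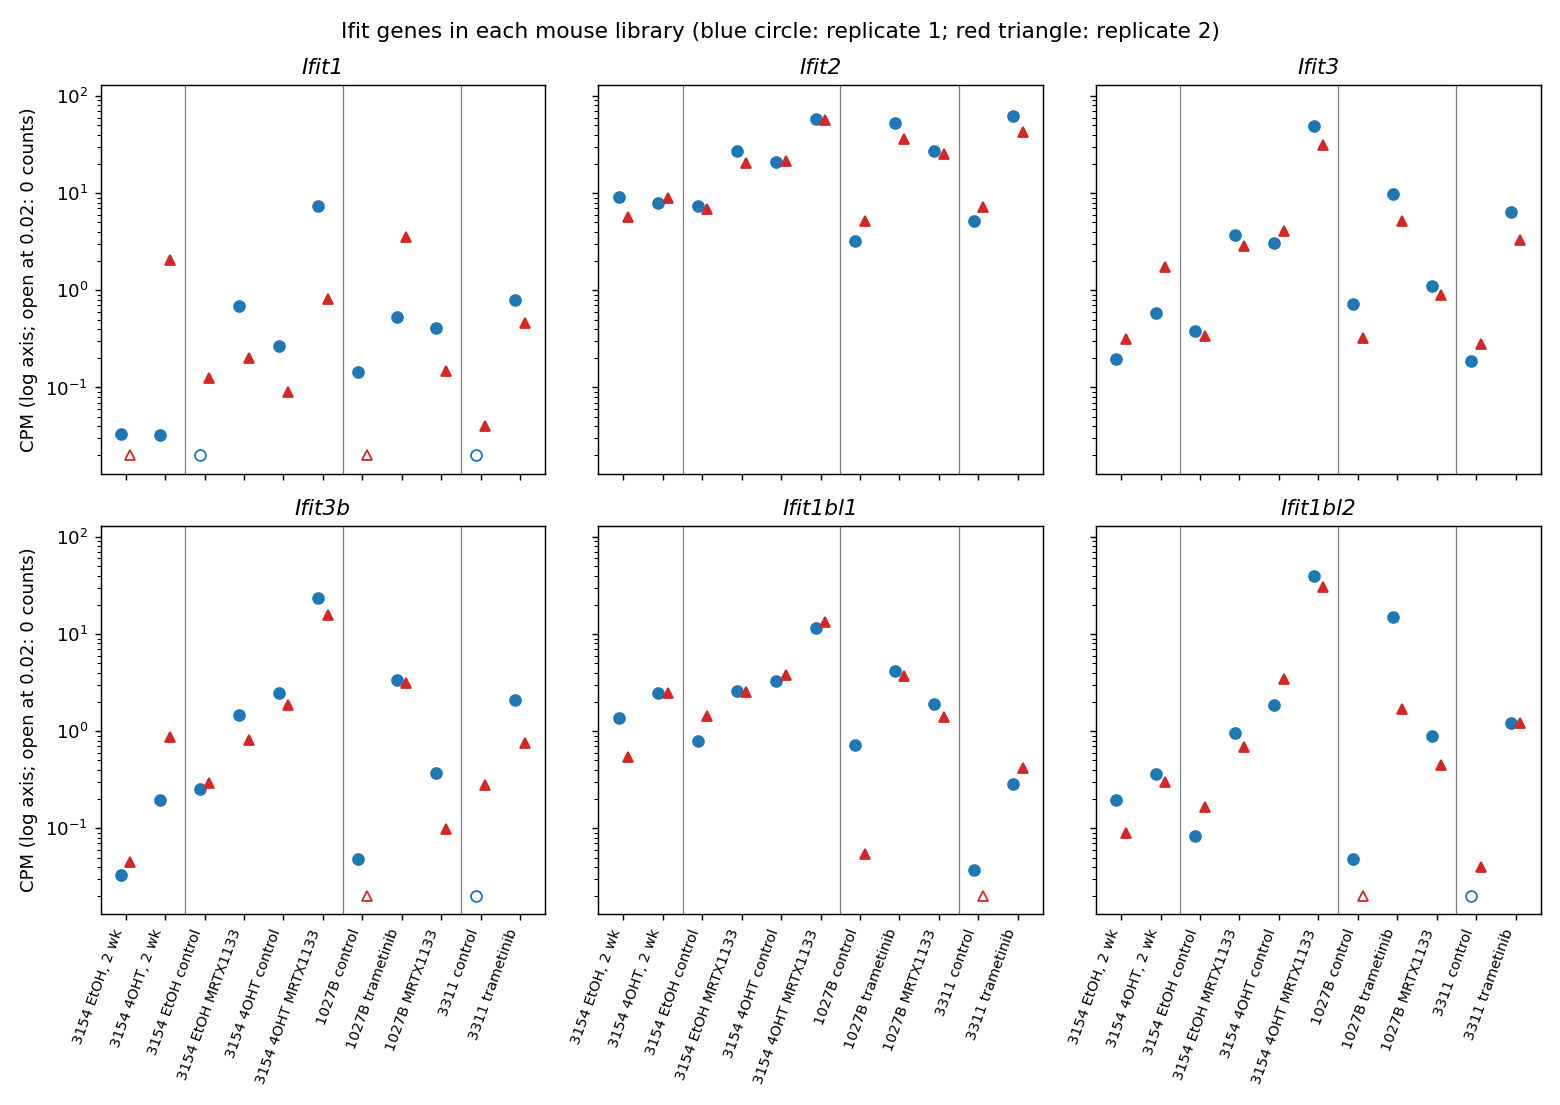
CPM (log axis) of the 6 Ifit genes in the 22 mouse libraries, 1 point a library, by group; open marks stand for 0 counts. Values were scaled within each table, so groups compare only inside an experiment, where Ifit2 and Ifit3 are higher with trametinib in 1027B and 3311 and with MRTX1133 in 3154.

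In 1027B organoids trametinib raised all 6 Ifit genes, by a median of 4.22. Of these, Ifit1, Ifit3b and Ifit1bl2 had 3, 1 and 1 counts in control and passed the filter only through treated libraries. The median therefore rests partly on genes near the floor in control, and Ifit3 and Ifit3b are not separate measurements. Among the 28 other tested members 9 were higher, 1 was lower and the median was 0.42. The background was 26.7% of 14555 genes called, 13.5% higher and 13.2% lower. The factors Irf1 and Irf9, the sensor Ddx58, the ADP-ribosyltransferases Parp9, Parp12 and Parp14, Usp18, Samd9l and Ifi27 rose, and Mx1 fell.

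Ifit2 measured 3.24 and 5.15 CPM in control and 53.1 and 36.1 CPM with trametinib, a rise of 3.41 ± 0.28 (adjusted p 0.000887). Ifit3 measured 0.726 and 0.325 CPM in control and 9.75 and 5.22 CPM with trametinib (3.80 ± 0.50, adjusted p 0.00341). Ifit3b had 1 count in the control libraries (0.0484 and 0 CPM) and 143 with trametinib (3.34 and 3.17 CPM), a ratio of 127 with an exact 95% interval of 22.5 to 5066 for counting error alone. Trametinib libraries lay above controls in all of these. Ifit1bl2 also had 1 count in control, against 14.9 and 1.68 CPM with trametinib, and the first trametinib library held most of it. Its ratio of counts, 329.6, had a 95% counting interval of 58.8 to 13054. Ifit1 measured 0.145 and 0 CPM in control and 0.534 and 3.54 CPM with trametinib (4.64 ± 1.31, adjusted p 0.0401), and here the second library was the higher. With 3 counts in control its ratio was 26.1, with a counting interval of 8.65 to 129. Without that library the log2 change of Ifit1 was 2.72 and its adjusted p was 0.194. The first trametinib library was thus the higher for Ifit1bl2, Ifit2 and Ifit3 and the second for Ifit1, Isg15 (0.935 and 4.90 CPM) and Rtp4 (0.267 and 2.43 CPM), which encodes an interferon-induced regulator of RNA sensing.

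Irf1 measured 24.5 and 21.1 CPM in control and 43.2 and 37.4 CPM with trametinib (0.82 ± 0.14, adjusted p 0.0071). Irf9 went from 16.9 and 14.5 to 26.5 and 27.1 CPM (0.77 ± 0.17, adjusted p 0.0183). Irf7 (1.78 ± 0.64, adjusted p 0.0821) and Stat2 (0.25) were not called. Parp12 measured 20.2 and 18.1 CPM in control and 83.2 and 89.6 CPM with trametinib (2.17 ± 0.11, adjusted p 0.000379). Ddx58 went from 4.99 and 1.90 to 15.0 and 16.7 CPM (2.19 ± 0.39), and Samd9l from 5.67 and 5.42 to 25.7 and 21.0 CPM (2.07 ± 0.19). In each of these the 2 treated libraries were above the 2 controls. Mx1 measured 54.8 and 45.6 CPM in control and 24.4 and 31.5 CPM with trametinib, and fell by 0.85 ± 0.18 (adjusted p 0.0161). Of the upstream list 7 genes were higher and 4 lower of 26, with Samhd1 at 1.62 and Sting1 at -2.13, and of the further genes 2 were higher and 3 lower of 19, with Uba7 at 0.88 and Ifi203 at -2.64. Lung lineage markers, 4 of 4 with rows, summed to 6297 to 10289 CPM in control and to 2201 to 2749 CPM with trametinib, with Sftpb, a surfactant protein, lower (-2.99) and Sftpc (4.01) and Nkx2-1 (0.43) higher. Epithelial markers, 5 of 5, summed to 9027 to 9170 CPM in control and to 7418 to 8260 CPM with trametinib. Fibroblast markers, 2 of 5, summed to 0.533 to 0.921 and 1.03 to 1.69 CPM. Whether these lists had a part in the result was not tested. With the replicate number as a block 19 members were called, against 44.9% of all genes. Without the second control library 10 members were called, and 7 were called in every fit without 1 library, among them Ifit2, Ifit3 and Ifit3b.

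MRTX1133 in 1027B raised 4 of 34 members and lowered none, where 6.27% of all genes were called, 3.01% higher and 3.26% lower. The 4 were Ifit2, Irf1, Parp12 and Samd9l. Ifit2 measured 27.1 and 25.1 CPM with MRTX1133 against 3.24 and 5.15 CPM in control (2.64 ± 0.27, adjusted p 0.00728). Parp12 measured 46.8 and 47.3 CPM against 20.2 and 18.1 CPM (1.29 ± 0.11, adjusted p 0.00455). Irf1 reached 36.7 and 34.7 CPM (0.65 ± 0.14, adjusted p 0.0422), and Samd9l reached 9.21 and 11.1 CPM (0.87 ± 0.19, adjusted p 0.0452). In all 4 the groups were apart.

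Ifit3 measured 1.11 and 0.897 CPM with MRTX1133 (0.92 ± 0.54, adjusted p 0.363), and Ifit1 measured 0.409 and 0.150 CPM (1.85 ± 1.57, adjusted p 0.536), a ratio to control of 3.89 with a 95% counting interval of 1.08 to 21.1. Irf7, Irf9 and Stat2 differed by 0.65, 0.37 and 0.01, none called. The lung lineage markers summed to 3021 to 4616 CPM with MRTX1133, with Sftpc higher (2.59), the epithelial markers to 7992 to 8126 CPM and the leukocyte markers to 6.88 to 6.95 CPM, against 8.57 to 8.99 CPM in control. Fibroblast markers summed to 1.11 to 1.69 CPM with MRTX1133 and to 0.533 to 0.921 CPM in control. The part of these lists in the result was not tested. Replicate numbers paired the 1027B libraries, and with the number as a block 10 members were called, against 24.1% of all genes. The 6 added were Ddx58, Ifit1bl1 and Ifit1bl2, which were higher, and Dhx58, a regulator of RNA sensors (-1.35), Mx1 (-0.71) and Lgals3bp, a secreted glycoprotein (-0.35), which were lower. Only 2 members, Ifit2 and Parp12, were called in every fit without 1 library, and 2 in all were called without either library with MRTX1133 or without the second control.

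Set directly against trametinib, MRTX1133 gave no call by edgeR among the 34 members, nor among all genes (0%). Unadjusted p values were under 0.05 for 15 members and 2357 genes, and DESeq2 called 6 members. Ifit3 differed by -2.88 ± 0.45 (adjusted p 0.0819) and Ifit2 by -0.77 ± 0.24 (adjusted p 0.211), with lower levels under MRTX1133. With the replicate block 9 members were called, all lower under MRTX1133, against 14.1% of all genes. Among them were Ifit3 (-2.87, adjusted p 0.00163), Ifit3b (-3.73, adjusted p 0.00386), Ifit1bl2 (-3.40, adjusted p 0.00386), Ifit2 (-0.76, adjusted p 0.0385) and Parp12 (-0.88, adjusted p 0.00164). The doses were 10 nM trametinib and 20 nM MRTX1133, and Dusp6 stood at 30.4 to 47.5 CPM under the former and at 114 to 123 CPM under the latter.

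Trametinib in the 3311 cell line raised 18 and lowered 2 of 35 tested members, at a background of 39% of 15224 genes called, 19.4% higher and 19.6% lower. The 5 Ifit genes tested all rose, by a median of 4.36, where Ifit1 and Ifit1bl2 had 1 count each in control and passed the filter only through the trametinib libraries. Of the 30 others 13 were higher and 2 lower, with a median of 0.53. Parp14, Parp12, Ddx60 and Ddx58, the last 2 being RNA sensors or their helpers, were among the larger rises, and Trim25 and Isg20, an exonuclease, fell.

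Ifit2 measured 5.20 and 7.21 CPM in control and 62.2 and 43.0 CPM with trametinib, a rise of 3.08 ± 0.26 (adjusted p 0.00055). Ifit3 measured 0.186 and 0.279 CPM in control and 6.38 and 3.31 CPM with trametinib (4.36 ± 0.54, adjusted p 0.00162). Ifit1bl2 had 1 count in the control libraries and 1.22 CPM in both trametinib libraries (adjusted p 0.00302), a ratio of 63.4 with a 95% counting interval of 10.98 to 2540.1. Trametinib libraries were above controls in all 3. Ifit1 measured 0 and 0.0398 CPM in control and 0.789 and 0.457 CPM with trametinib (4.71 ± 0.98, adjusted p 0.01), a ratio of 32.6 with a 95% counting interval of 5.48 to 1327. Ifit3b rose by 3.35 ± 1.01 (adjusted p 0.0368), and this was not called without the first trametinib library (adjusted p 0.122).

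Irf1 went from 48.3 and 40.9 to 98.6 and 89.6 CPM (1.08 ± 0.15, adjusted p 0.00233). Irf7 went from 6.50 and 5.02 to 10.5 and 9.78 CPM (0.81 ± 0.25, adjusted p 0.0383), while Irf9 (0.17) and Stat2 (0.19) were not called. Parp14 measured 2.08 and 4.42 CPM in control and 34.9 and 25.9 CPM with trametinib (3.23 ± 0.37, adjusted p 0.00124). The groups were apart in these genes. Parp12 went from 2.30 and 2.43 to 13.3 and 10.3 CPM (2.32 ± 0.27), and Ddx60 from 0.557 and 1.19 to 3.73 and 3.65 CPM (2.08 ± 0.45). Trim25 measured 303 and 234 CPM in control and 153 and 170 CPM with trametinib, and fell by 0.74 ± 0.17 (adjusted p 0.014). Isg20 fell by 0.70 ± 0.19.

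Isg15 itself measured 0.706 and 1.19 CPM in control and 1.68 and 1.10 CPM with trametinib in 3311 (0.56, adjusted p 0.384), and the groups overlapped. Among 24 further genes 12 were higher, with Phf11d at 3.01, Iigp1 at 2.84 and Trim30a at 2.42, and 2 lower, and of 27 upstream genes 5 were higher and 3 lower, Irf8 (-2.40) among them. Leukocyte markers, of which 4 of 10 had rows, summed to 9.55 to 15.9 CPM in control and to 21.8 to 28.6 CPM with trametinib. Csf1r led that sum (24.0 CPM on average with trametinib), Cd68 stood lower with trametinib (0.951 to 1.54 CPM against 4.06 to 4.87 CPM) and Ptprc, the defining marker, had 0 counts in all 4 libraries. Lung lineage markers, 4 of 4 with rows, summed to 4463 to 5115 CPM in control and to 462 to 564 CPM with trametinib, with Sftpb at -3.82 (lower) and Nkx2-1 at -0.19 (not called). Fibroblast markers, 4 of 5, summed to 14.9 to 15.8 CPM in control and to 11.4 to 14.4 CPM with trametinib, with Pdgfra lower (-0.84) and Col1a1 higher (1.62). Endothelial markers, 2 of 4, summed to 1.35 to 1.52 and 0.717 to 1.22 CPM. Epithelial sums overlapped, at 7535 to 9686 CPM in control and 6158 to 7907 CPM with trametinib, and Krt18 was lower (-1.43). The part of these 5 lists in the result was not tested. Without the first trametinib library 13 members were called, and 12 were called in every fit without 1 library.

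**Figure D4:**
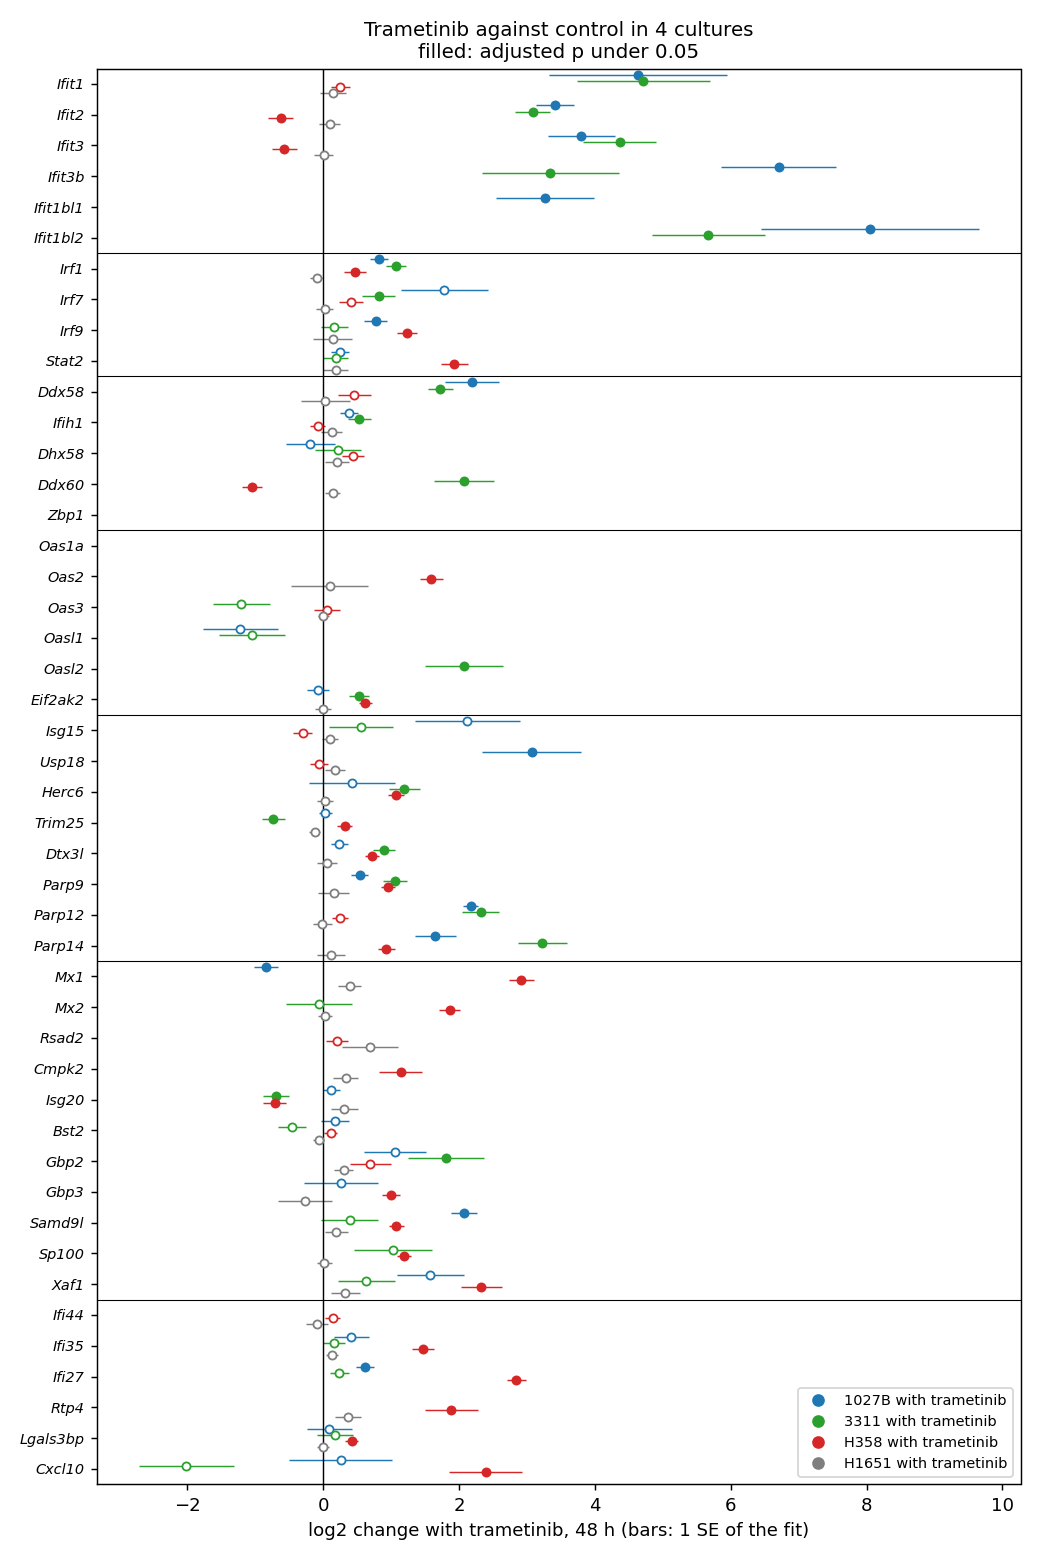
Log2 change with trametinib (± SE) of the members in 1027B, 3311, H358 and H1651; filled points have adjusted p under 0.05. Ifit2 and Ifit3 lie above 3 in both mouse cultures, at -0.62 and -0.57 in H358 and near 0 in H1651.

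In H358 trametinib raised 22 and lowered 4 of 39 tested members, against 46.8% of 18972 genes called, 23.5% higher. None of the 3 IFIT genes among the members rose. IFIT2 and IFIT3 fell, while IFIT5, of the further list, was higher (0.62 ± 0.15, adjusted p 0.0101), and 22 of the 36 other members rose, 2 fell and their median was 0.71. MX1 and MX2, antiviral GTPases, IFI27 and XAF1 were among the members that rose.

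IFIT2 measured 24.0 and 33.5 CPM in control and 16.9 and 20.5 CPM with trametinib, and fell by 0.62 ± 0.19 (adjusted p 0.0247). IFIT3 measured 45.7 and 60.8 CPM in control and 30.2 and 41.6 CPM with trametinib, and fell by 0.57 ± 0.19 (adjusted p 0.0356). IFIT1 measured 31.5 and 40.1 CPM in control and 40.7 and 44.8 CPM with trametinib (0.25 ± 0.14, adjusted p 0.18). Neither IFIT2 nor IFIT3 overlapped between groups, and neither call held in every fit without 1 library.

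STAT2 measured 46.9 and 33.9 CPM in control and 180 and 129 CPM with trametinib (1.93 ± 0.20, adjusted p 0.000175). IRF9 went from 9.50 and 8.24 to 21.9 and 19.9 CPM (1.23 ± 0.15, adjusted p 0.000386). IRF1 rose by 0.47 ± 0.16 (adjusted p 0.0452), and IRF7 at 0.42 was not called (adjusted p 0.0863). MX1 measured 8.88 and 12.6 CPM in control and 74.0 and 88.0 CPM with trametinib (2.92 ± 0.18, adjusted p 2.14e-05). IFI27 went from 7.85 and 8.93 to 57.1 and 63.2 CPM (2.84 ± 0.14, adjusted p 8.18e-06). XAF1 went from 2.41 and 1.19 to 8.92 and 9.38 CPM (2.33 ± 0.30). Trametinib libraries stood above controls in all of these.

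By role, 7 of 11 antiviral effectors, 5 of 6 others, 5 of 8 genes of the ISG15 group, 3 of 4 factors and 2 of 3 OAS genes and PKR were higher in H358. OAS2, which makes the signal for RNA cleavage, went from 4.27 and 4.15 to 11.8 and 13.7 CPM (1.59 ± 0.17). CXCL10, a chemokine, rose by 2.39 ± 0.54 from 0.155 and 0.179 to 0.580 and 1.30 CPM. Of the sensors none of 4 rose, and DDX60 fell by 1.05 ± 0.14 from 243 and 182 to 101 and 104 CPM. ISG20 fell by 0.71 ± 0.17. ISG15 measured 102 and 127 CPM in control and 84.7 and 101 CPM with trametinib (-0.30, adjusted p 0.11). Among 26 further genes 10 were higher and 3 lower, with IFI6 at 2.56, OASL at -2.37 and HERC5 at -1.74, and of 26 upstream genes 10 were higher, with TLR3 at 2.69, and 4 lower, with CGAS at -1.58. Fibroblast markers, 5 of 5 with rows, summed to 40.2 to 49.1 CPM in control and to 238 to 343 CPM with trametinib, led by LUM and COL1A1, with DCN and COL1A2 at 0 in control and at most 0.430 CPM with trametinib. Epithelial markers, 5 of 5, summed to 5337 to 5534 CPM in control and to 3601 to 3882 CPM with trametinib, with KRT18 (-1.58), KRT8 (-1.04) and EPCAM (-0.68) lower and CDH1 (1.05) higher. Endothelial markers, 4 of 4, went from between 12.1 and 14.4 to between 21.1 and 21.2 CPM, with CDH5 higher (3.57). Lung lineage markers, 3 of 4, went from between 119 and 134 to between 174 and 178 CPM, with NKX2-1 (0.47) and NAPSA (0.92) higher. The leukocyte sums overlapped, and PTPRC was higher (1.87), at 0.155 to 0.209 CPM in control and 0.589 to 0.731 CPM with trametinib. Whether these lists had a part in the result was not tested. Every fit without 1 library left 23 to 27 members called, 19 of the 26 among them each time.

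In H1651, edgeR without a block called none of 37 tested members with trametinib, and 0% of 18277 genes. No member, and 597 of all genes, had an unadjusted p under 0.05, and DESeq2 called 0 members and 47 genes. With the replicate number as a block edgeR called 3 members, against 10.3% of all genes. Replicate differences correlated at 0.623 between the groups, and whether the numbers pair these libraries is not known. IFIT1 measured 6.62 and 7.97 CPM in control and 7.22 and 8.89 CPM with trametinib (0.15 ± 0.19). IFIT2 measured 6.95 and 8.12 CPM in control and 8.17 and 7.94 CPM with trametinib, and IFIT3 measured 13.8 and 16.8 CPM in control and 15.6 and 15.1 CPM with it. The groups overlapped in all 3, and the log2 differences of IFIT2 and IFIT3 were 0.10 and 0.01. IRF1, IRF7, IRF9 and STAT2 differed by -0.09, 0.02, 0.14 and 0.18. MX1 measured 127 and 94.1 CPM in control and 155 and 134 CPM with trametinib.

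**Figure D5:**
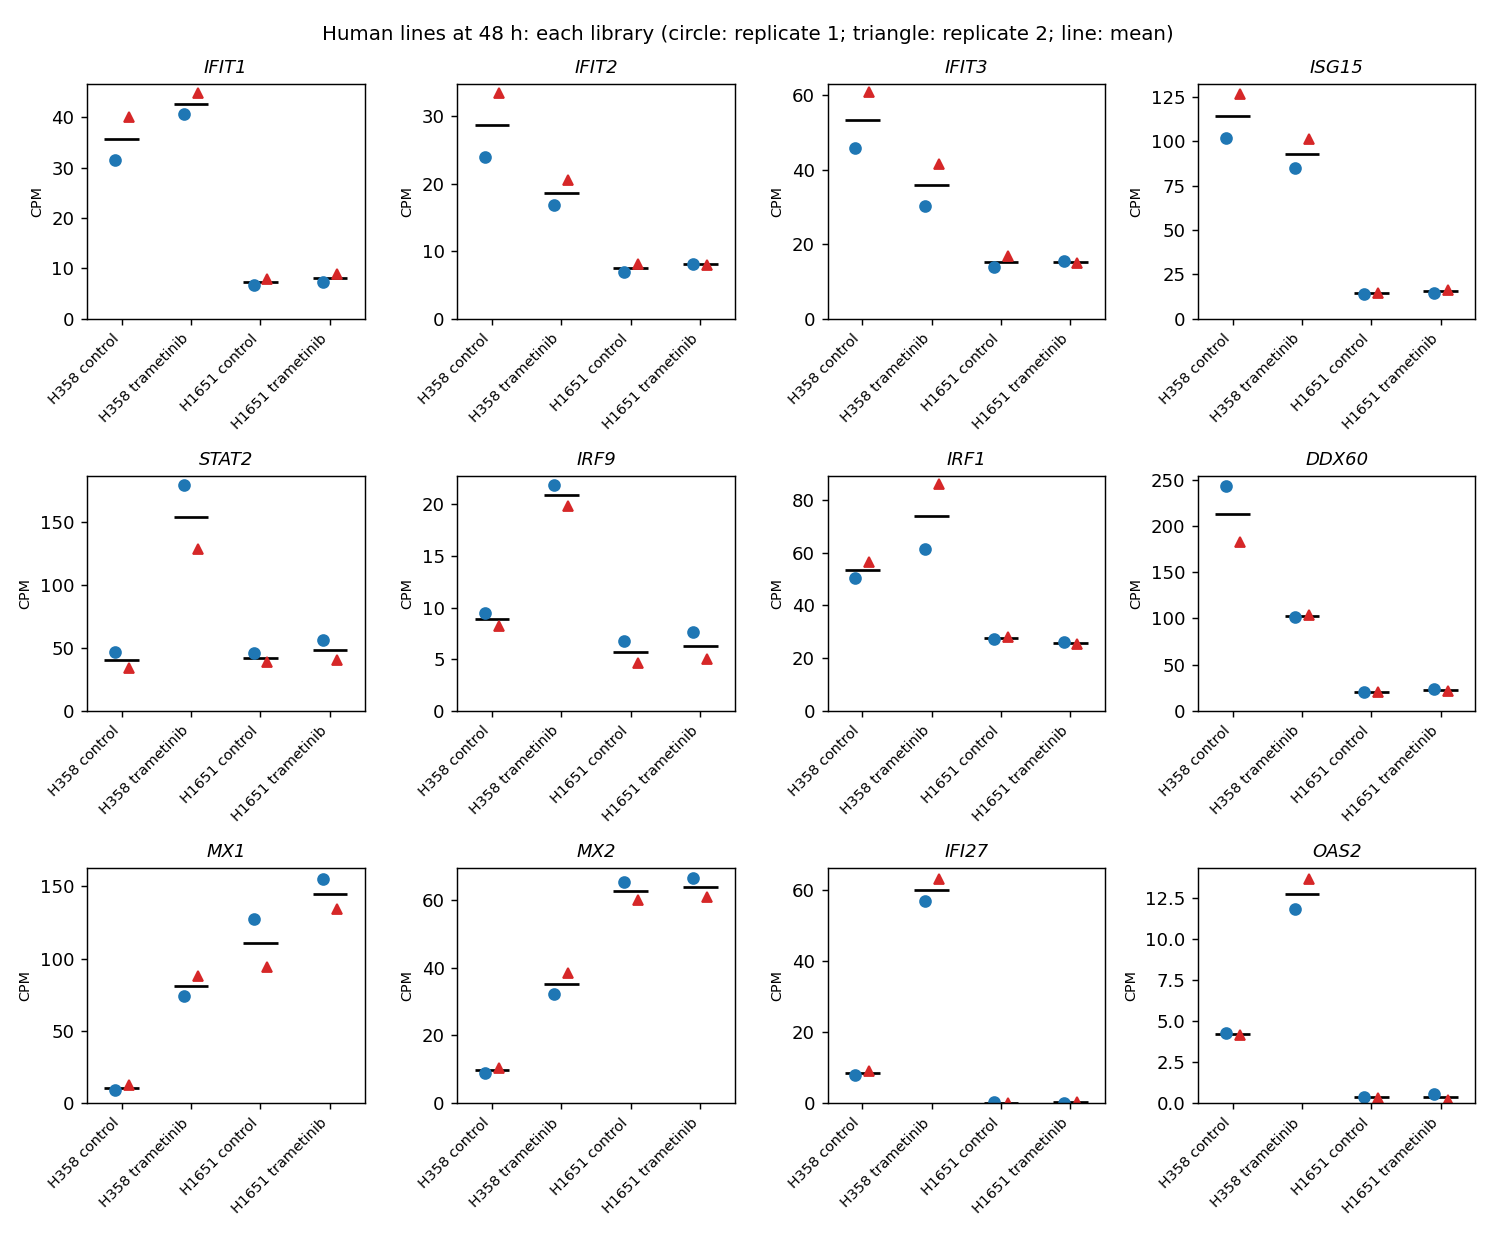
CPM (linear axis from 0) of 12 members in the control and trametinib libraries of H358 and H1651, scaled within each line, with 1 point a library and the line the group mean. MX1, MX2, IFI27 and STAT2 lie higher with trametinib in H358, IFIT2, IFIT3 and DDX60 lie lower there, and no member was called in H1651 in the fit without a block.

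Induction of HNF4A in H1651 for 7 days came with 1 called member of 37, at a background of 1.42% of 17351 genes, 1.04% higher and 0.386% lower. That was IFI44, an interferon-induced protein that limits growth, which measured 16.5 and 17.6 CPM without and 9.98 and 9.14 CPM with doxycycline, and fell by 0.84 ± 0.12 (adjusted p 0.0283). IFIT1 measured 5.57 and 6.34 CPM without and 5.46 and 6.80 CPM with doxycycline, IFIT2 8.78 and 7.56 against 9.39 and 6.89 CPM, and IFIT3 16.9 and 16.8 against 20.4 and 15.7 CPM. All 3 overlapped between groups, with log2 differences of 0.04, 0.00 and 0.10. IRF1 (0.31), IRF7 (0.33), IRF9 (-0.26) and STAT2 (-0.01) were not called. IFI6, of the further genes, rose by 1.11, and IFNGR1, of the upstream genes, by 0.63. With the replicate number as a block 9 members were called, against 17.6% of all genes, and whether the numbers pair these libraries is not known. Epithelial markers, 5 of 5, summed to 4420 to 4422 CPM without and to 5716 to 6204 CPM with doxycycline, fibroblast markers, 5 of 5, to 228 to 277 and 167 to 203 CPM, and their part in the result was not tested. IFI44 was not called without the second library grown without doxycycline, which left 0 members called, and 2 were called without the second doxycycline library.

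Across cultures that share no library, the called members were set beside each other. In 1027B and 3311, 30 members were tested in both with trametinib, and 10 were called in both, all higher, which is 76.9% of the 13 called in 1027B and 55.6% of the 18 in 3311. Over all 13396 genes tested in both, the genes called in both were 56% of those called in 1027B and 38.2% of those called in 3311, and 91.1% of them had the same direction. They were Ifit1, Ifit2, Ifit3, Ifit3b, Ifit1bl2, Irf1, Ddx58, Parp9, Parp12 and Parp14. Of the 4 members raised by MRTX1133 in 3154 with Hnf4a intact, all (100%) were also higher with trametinib in 3311, which is 22.2% of its 18 calls there. The corresponding overlap for all genes tested in both was 33 of 40 (82.5%), and 32 of the 33 had the same direction. Against trametinib in 1027B, 3 of the 4 (75%, all but Ifih1) were also higher, and over all genes 42 of 51 were called in the same direction. With the replicate block edgeR also called Ifih1 higher in 1027B (0.37, adjusted p 0.0113), and the shares over all genes were not recomputed with it. Between 1027B and H358, 30 members were tested in both and 9 were called in both, 69.2% of the 13 called in 1027B and 45% of the 20 in H358, 6 in the same direction (Irf1, Irf9, Parp9, Parp14, Samd9l and Ifi27) and 3 in opposite directions (Ifit2, Ifit3 and Mx1). Over all genes the shares were 62.6% and 33.9%, and of the 1871 genes called in both 78% had the same direction. Between 3311 and H358, 11 of 31 were called in both, 64.7% of the 17 called in 3311 and 52.4% of the 21 in H358, with Ifit2, Ifit3, Ddx60 and Trim25 opposite, and over all genes the shares were 59% and 45.6%, with 70.8% of the 2575 genes called in both in the same direction. Irf1, Parp9 and Parp14 were thus higher with trametinib in 1027B, 3311 and H358, but Irf1 in 1027B and H358 and Parp9 in 1027B were not called in every fit without 1 library. Of the 5 members called in 3154 at 2 weeks, 3 (Mx1, Gbp2 and Gbp3) were also higher after 4OHT in the controls of the 48 h experiment, 60% of the former and 23.1% of the 13 calls among members tested in both. Over all genes these shares were 73.1% and 21.4%. Doses differed between the cultures, and no test of a difference between cultures was made.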

How the data were processed

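RNA was measured by poly(A)-selected, strand-specific RNA sequencing in 34 libraries. Values are unnormalized read counts for Ensembl genes, in 7 tables that the authors deposited, with 1 column a library. The submitters' processing notes name cutadapt 3.5, STAR 2.7.6a and featureCounts 1.6.3 and the builds mm10, mm39 and hg38; which build belongs to which table, and the strand setting of the counting, are not given in the sources used here. The strand setting bears on Dtx3l and Parp9, which overlap on opposite strands. The 3311 columns name treatment and replicate only, and were assigned by the table they stand in. In the 48 h table of 3154, 29 rows had an Ensembl identifier without a symbol and were kept.

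Each table was fitted on its own with edgeR 4.0.16 in R 4.3.3 (filterByExpr, TMM, quasi-likelihood F-test, Benjamini-Hochberg over all genes tested, threshold 0.05), with no replicate block. The 8 libraries of 3154 at 48 h shared 1 fit, as did the 6 of 1027B. SE is the log2 change over the square root of F. The fits were tested on simulated counts. Exact 95% intervals on ratios were computed where a group had 1 to 3 counts, and, like the limit set by 3 counts, they cover counting error only. Each result was recomputed with DESeq2 1.42.0, with upper-quartile or RLE scaling, without a filter, with at least 10 counts in every library, with the 2 groups compared alone, with a replicate block and without each library. A library left out leaves a lone one, assumed to vary like the other groups.

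To check pairing, the difference between replicates 1 and 2 was correlated across genes between groups. In 1027B it was 0.243, 0.372 and 0.414, so its numbers pair the libraries.

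Members and lists were chosen with earlier results of these data known. Ifit1, Ifit2, Ifit3, Irf1, Irf7, Irf9 and Stat2 were named in each comparison, with every called member where 5 or fewer were called, otherwise up to 4 of the largest rises and falls with at least 1 CPM; any other member named was free to be chosen. From the upstream list (36 genes with ligands) and the further list (41 genes), at most 3 rises and 3 falls were named. Some items of the labels and lists are not reported here. Promoter windows came from RefSeq, GRCm38.p6, and motifs were searched on both strands.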

Additional observations from a re-analysis of the deposited data

Results flagged for a closer look

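Some members were called in opposite directions with trametinib in cultures of different species, and these differences were not tested. Ifit2 changed by 3.41 in 1027B and by 3.08 in 3311 on the log2 scale, with both treated libraries above both controls in each, and IFIT2 by -0.62 in H358, with both treated libraries below both controls. Ifit3 changed by 3.80 in 1027B, by 4.36 in 3311 and by -0.57 in H358, with the same separation. Mx1 changed by -0.85 in 1027B and by 2.92 in H358. For Ddx60 the change was 2.08 in 3311 and -1.05 in H358. Trim25 changed by -0.74 in 3311 and by 0.32 in H358. Mx1 in 1027B and IFIT2, IFIT3 and TRIM25 in H358 were not called in every fit without 1 library. The doses were 10 nM in 1027B, 50 nM in 3311 and 20 nM in H358, and the 3 cultures were counted in separate tables.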

How the results depend on the processing

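The number of members called depended on the setting as follows, with the percent of all genes called in parentheses where given. In the fits without 1 library the number called over all genes moved too in most comparisons. In 3154 at 2 weeks, 5 (9.81%), it was 8 with no count filter (8.66%), 11 with DESeq2 (15.6%) and 15 with the replicate block (31.5%), and 2 to 11 on leaving out 1 library. For deletion at 48 h the range on leaving out 1 library was 11 to 17 in control medium (15 called) and 15 to 22 under MRTX1133 (20 called), where a minimum of 10 counts in every library gave 13 of 23 tested (27.8%). For MRTX1133 with Hnf4a intact, 4 (0.349%), DESeq2 gave 8 (2.26%), the 2 groups alone 0 (0%) and leaving out 1 library 0 to 5. After deletion, 11 (4.64%), these were 19 (9.13%), 25 (26.5%) and 0 to 4. In 1027B trametinib, 16 (26.7%), the count minimum gave 10 of 26 tested (28.3%), the block 19 (44.9%), and leaving out 1 library 10 to 12. For MRTX1133 there, 4 (6.27%), the block gave 10 (24.1%), the 2 groups alone 2 (4.45%) and leaving out 1 library 2 to 4. MRTX1133 against trametinib, 0 (0%), gave 9 with the block (14.1%) and 6 with DESeq2 (5.33%). In 3311 (20 called) leaving out 1 library gave 13 to 20, and in H358 (26 called) 23 to 27. In H1651 the block gave 3 calls (10.3%) with trametinib, from 0 (0%), and 9 (17.6%) with doxycycline, from 1 (1.42%), where leaving out 1 library gave 0 to 2. Fewer tested genes follow from the count minimum by construction, and otherwise the cause was not tested. The member median with doxycycline, 0.03, ran from -0.059 without the first doxycycline library to 0.17 without the second. No member called in both the main fit and an alternative changed sign between them, and this count did not cover members that lost their call. Replicate numbers outside 1027B were treated as shared numbers only, since no other table had 3 pairs of groups that all correlated. A table of 2 groups could not meet this rule, and whether the numbers pair the libraries outside 1027B is not known. The correlation of replicate differences was 0.427 in 3154 at 2 weeks, -0.251 to 0.549 at 48 h, 0.126 in 3311 and 0.318 in H358. In the H1651 trametinib and doxycycline tables it was 0.623 and 0.318. Depth limits Ifit1, Ifit3b and Ifit1bl2, whose control groups held 1 to 3 counts in 1027B.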
